A study of Mus musculus with 13 samples.

Results

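The Pax genes (Pax1 to Pax9), the 9 members of the paired box family in the mouse, were described here in the peak lists of a ChIP-Seq study of the oligodendrocyte lineage. They were chosen by name, as 9 of 35312 protein-coding and lncRNA genes of the GENCODE annotation. A listed H3K4me3 (K4) or H3K27me3 (K27) peak was counted at a gene when it lay within 2 kb of any annotated transcription start site (TSS) or in the gene, and an OLIG2 peak when it lay in the gene or up to 5 kb upstream. All coordinates are on mm10.

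Pax proteins are transcription factors that bind DNA through a paired domain, and some carry a homeodomain as well. They set regional and cell identity in the embryo, and most of them are silent in tissues outside their own field of expression. H3K4me3 marks active or poised promoters, and H3K27me3 is laid down by the Polycomb repressive complex over silent developmental genes. Where both marks overlap, the region is called a bivalent domain. In the neural tube, Pax6 is a gene of neural progenitors and radial glia.

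The study followed 3 stages of the lineage, which are NSCs (neural stem cells), OPCs (progenitors of oligodendrocytes) and NFOs (oligodendrocytes that have newly formed), all untreated per the labels, with 1 library per target and stage. The labels give the strain C57BL/6 for every sample, but the culture protocol describes the NSCs as purchased cells from the cortex of embryonic day 14.5 CD-1 mice, grown with EGF and FGF. Per the methods, OPCs and NFOs were immunopanned from postnatal day 7 C57BL/6 brains, on a PDGFRα antibody and then on a GalC antibody, after microglia and endothelial cells had been removed. The step from NSCs to the later stages therefore cannot be told apart from strain, age, culture and, since the peak names show single-end reads in NSCs and paired-end reads in OPCs and NFOs, read type.

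No value below carries a replicate error or a test. Read depth is unknown from peak lists, so that a missing peak does not show that a mark is absent. The titles and the antibody labels of the 6 histone libraries name opposite marks, and the titles were followed. The lists titled H3K4me3 had a peak within 2 kb of a TSS at 49%, 45.3% and 32.7% of all genes in NSCs, OPCs and NFOs, against 12.9%, 14% and 8.04% for those titled H3K27me3. All 5 OPC markers examined (Pdgfra, Cspg4, Sox10, Olig1, Olig2) had K4 at a TSS in OPCs, and all 5 NSC markers in NSCs, but these markers did not tell the 2 stages apart, since all 5 of each list had K4 in both. None of 5 oligodendrocyte markers (Mbp, Mag, Mog, Myrf, Enpp6) had K4 at a TSS in NFOs, and 2 of 5 (Mbp and Myrf) had it in NSCs and in OPCs. Neuronal markers had K4 at 4, 5 and 4 of 5 genes by stage, astrocyte markers at 2, 1 and 1, microglial markers at 0, 1 (Csf1r) and 0, and endothelial markers at 1 each time. The markers of the labelled cell type were thus without K4 in the NFO list, although 4 of 5 OPC markers and 3 of 5 NSC markers had it there. The part of other cells in the NFO values was not tested, and fewer cells with a mark and less of it per cell cannot be told apart in bulk samples.

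Many short peaks in the lists lie on runs of A or T. Of OLIG2 peaks of the usual length, 71.5% of 7318 in OPCs and 70.9% of 16888 in NFOs held 10 or more A or 10 or more T in a row, against 4.87% and 4.99% of all genome windows of those lengths. For histone peaks under 500 bp, a run of this kind lay within 150 bases of the centre in 79.8% (K4) and 92.4% (K27) in NSCs, 39.3% and 66.3% in OPCs, and 61.9% and 29.6% in NFOs, beside 6.31% of all 300-base windows of the genome. Among such short peaks at Pax genes, these were 11 of 16 (K4) and 13 of 14 (K27) in NSCs, 3 of 7 and 15 of 28 in OPCs, and 7 of 10 and 4 of 16 in NFOs. Stage counts for wide K27, K27 and K4 near a TSS, bivalent domains and OLIG2 are therefore also given without these peaks. The overlap of K4 with K27, the covered lengths and the bases shared between libraries were taken from all listed peaks only. The part of the runs in peak calling was not tested.

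Broad H3K27me3 was the mark shared by most of the family. There were 6 genes in NSCs and 8 genes in OPCs and in NFOs with a K27 peak among the widest 5% of that stage's list, a rank within 1 list, since widths are not on 1 scale across libraries. Such a peak was at 3.68%, 3.02% and 1.64% of all genes and at 4.38%, 3.3% and 1.71% of protein-coding genes, which were not matched to the length of the Pax genes. Pax4 was at no stage among them, and Pax6 and Pax8 were not in NSCs. Without the peaks at runs of A or T the counts were again 6, 8 and 8, with 2.07%, 2.18% and 1.53% of all genes.

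**Figure D1:**
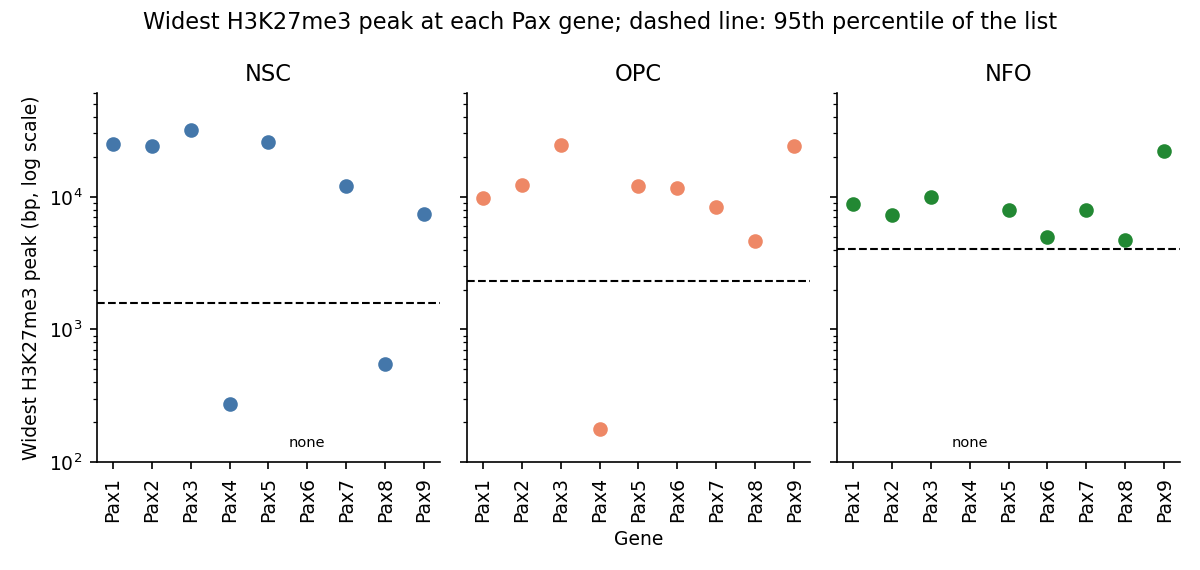
Width in bp (log scale) of the widest listed H3K27me3 peak at each Pax gene in NSCs, OPCs and NFOs, 1 library each, with a dashed line at the 95th percentile of widths in that list (1580, 2310 and 4010 bp). There are 6 genes above the line in NSCs and 8 in OPCs and NFOs, and "none" marks a gene with no listed peak.

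A K27 peak was listed at 8 Pax genes in NSCs, where 28.1% of all genes had one, at all 9 in OPCs (21.5% of genes) and at 8 in NFOs (11.3%). The Pax genes are long, with a median of 55040 bp against 17425 bp for protein-coding genes, which gives a peak in the gene more room. Near a TSS alone, the counts were 7, 9 and 8, where 12.9%, 14% and 8.04% of all genes had a peak. Pax1, Pax2, Pax3, Pax5, Pax7 and Pax9 had K27 near a TSS at all 3 stages, as did 3.76% of all genes. Without the peaks at runs of A or T, K27 near a TSS was left at 6, 8 and 8 members, with 7.58%, 10.3% and 7.28% of all genes.

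K4 near a TSS was listed at 6 Pax genes in NSCs (Pax1, Pax2, Pax3, Pax5, Pax6 and Pax9), 5 in OPCs (Pax1, Pax2, Pax5, Pax6 and Pax8) and 4 in NFOs (Pax1, Pax2, Pax5 and Pax6). By stage, 49%, 45.3% and 32.7% of all genes and 64.3%, 60.8% and 43.6% of protein-coding genes had such a peak. With peaks anywhere in the gene the counts were 7, 6 and 7, where 52.5%, 47.5% and 36.9% of all genes had one. Without the peaks at runs of A or T, K4 near a TSS was left at 6, 4 and 3 members, with 47.3%, 44.7% and 27.3% of all genes. The K4 counts lay nearer to the shares of all genes than the K27 counts did. Most of the K4 peaks at Pax genes lay on K27: 26 of 32 did so in the NSC lists, 10 of 12 in those of OPCs and 15 of 17 in those of NFOs, where 23.1%, 12% and 8.08% of the listed K4 peaks overlapped K27.

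A bivalent domain, the merged region of a K4 peak and a K27 peak that overlap by at least 1 bp, reached within 2 kb of a TSS at 6 members in NSCs and at 7 members at each later stage, where 7.54%, 4.79% and 2.86% of all genes had one. Pax1, Pax2, Pax3, Pax5 and Pax9 had one at all 3 stages, as did 1.56% of all genes. With only the peaks that pass the study's filter, Pax7 and Pax9 had none in NSCs, and Pax1, Pax2, Pax3 and Pax5 were left at all 3 stages, with 1.25% of all genes. The region with both marks was often small and could lie far from the start. Only at Pax1, Pax2, Pax5 and Pax6 was the K4 peak of the domain itself within 2 kb of a TSS in NFOs. Among all listed peaks, members with a domain and no peak of a single mark near a TSS were Pax1, Pax2, Pax3 and Pax5 in NSCs. In OPCs and in NFOs they were Pax3 and Pax9, and the share of all genes under this stricter rule was not counted. Without the peaks at runs of A or T, the NSC count stayed at 6 genes while 4 were left in OPCs (Pax2, Pax3, Pax6, Pax8) and 3 in NFOs (Pax2, Pax3, Pax5), with 4.31%, 3.5% and 1.37% of all genes. Pax2 and Pax3 alone then had a domain at all 3 stages, and the share of all genes for this was not counted.

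**Figure D2:**
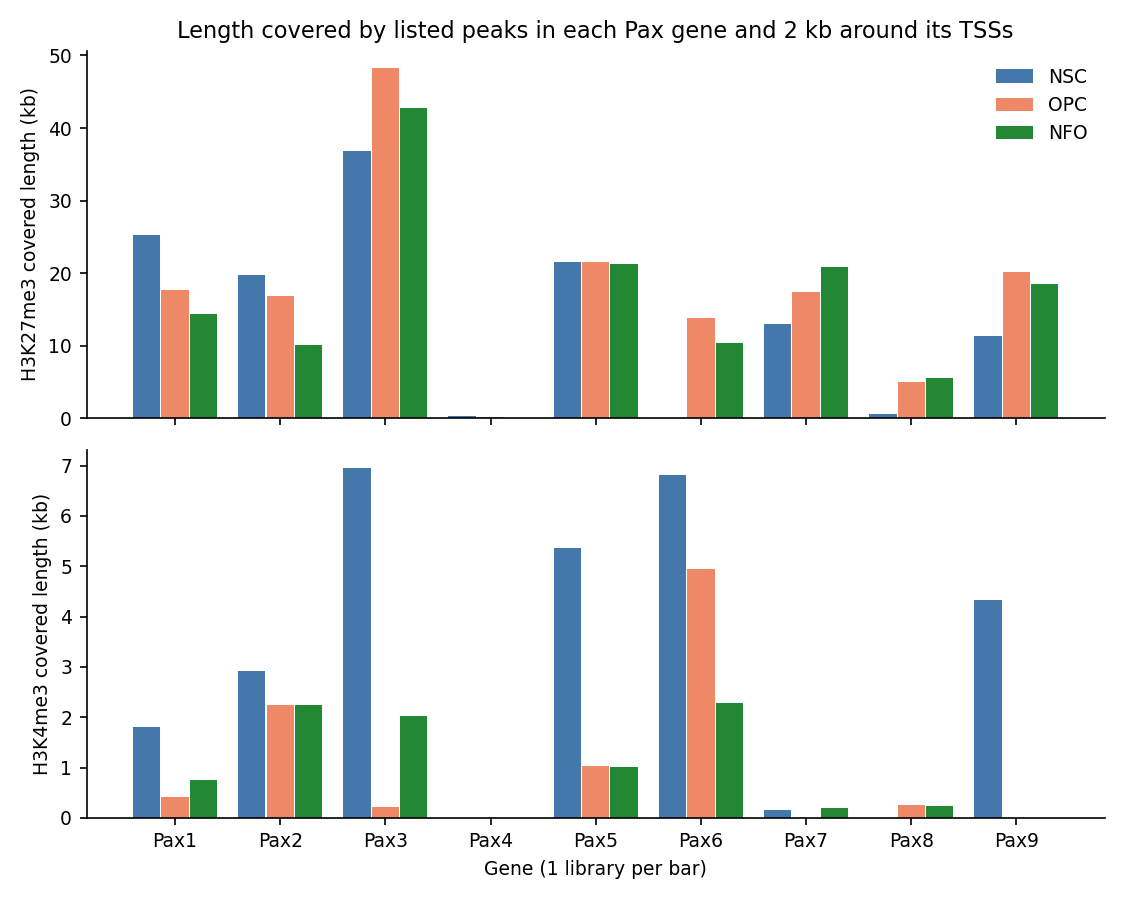
Length in kb covered by listed H3K27me3 peaks (top) and H3K4me3 peaks (bottom) in each Pax gene and 2 kb around its TSSs, with 1 bar per library for NSCs, OPCs and NFOs. Pax6 has no H3K27me3 bar in NSCs and bars of 13788 and 10323 bp in OPCs and NFOs. Pax3 and Pax9 have their longest H3K4me3 bars in NSCs, where the H3K4me3 list as a whole also covers the most bases.

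Pax6, the family's regulator of eye, cortex and pancreas development, was the one member with K4 and no K27 in NSCs. The gene lies at chr2:105668900-105697364 on the plus strand, with 24 annotated TSSs. In NSCs, a K4 peak of 5951 bp with 11.3-fold enrichment over the control covered TSSs inside the gene, and its width was at the 99.5th percentile of the list. No K27 peak was listed in the gene in NSCs, and the nearest one upstream ended at -7.45 kb from the 5′ end. In OPCs, the K4 peak that began at nearly the same place was 2927 bp wide (7.13-fold), and in NFOs 2 peaks of 185 and 322 bp lay in its place, of which the second was 12.5-fold enriched.

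K27 covered 0 bp of Pax6 in NSCs but 13788 and 10323 bp in the libraries of OPCs and NFOs, over 7 peaks at each. The widest in OPCs, 11691 bp with 4.61-fold enrichment, ran from upstream of the gene over its 5′ end, and the widest in NFOs covered 4996 bp of the same stretch. K4 covered 6816, 4939 and 2282 bp. In the gene, the libraries thus went from K4 alone to both marks side by side. The K4 lists as a whole covered 37903209, 21443426 and 10556056 bp in NSCs, OPCs and NFOs. Among protein-coding genes, the K4 length at Pax6 was at the 98.6th, 98.9th and 97.9th percentile, so that no loss particular to Pax6 is read from it. In the gene and within 2 kb of its TSSs, the marks overlapped over 534, 257 and 1543 bp in 3 domains in OPCs and over 185, 231 and 1351 bp in NFOs. Without the peaks at runs of A or T, Pax6 kept a bivalent domain near a TSS in OPCs but had none in NFOs. The K4 peaks of 185 and 231 bp in NFOs were among those left out, and the 1351 bp overlap lay more than 2 kb from any TSS. Further upstream, a short K4 peak that began at -8.4, -8.46 and -8.53 kb from the 5′ end in NSCs, OPCs and NFOs overlapped K27 in every library, over 170 bp (NSCs), 175 bp (OPCs) and 247 bp (NFOs), and a second one in NFOs lay on K27 over 189 bp.

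Part of this overlap sat on short K27 peaks that began where a K4 peak began. In OPCs a K27 peak of 288 bp with 10.7-fold enrichment started 4 bp before the 2927 bp K4 peak, and in NFOs a K27 and a K4 peak both started at position 105674000. Starts within 10 bp of a K27 start were seen for 0 of 32, 2 of 12 and 5 of 17 K4 peaks at Pax genes in NSCs, OPCs and NFOs, beside 1.08%, 2.15% and 2.12% of the lists. The wide K27 peak over the 5′ end of Pax6 overlapped no K4 peak at either stage.

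One Pax6 promoter is shown because K4 covered part of it at all 3 stages and K27 in OPCs and NFOs. It runs from 250 bases before to 50 after a start inside the gene, at chr2:105682213-105682512 on the plus strand (RefSeq, GRCm38.p6). The K4 peak of NSCs, 250 bp wide with 3.77-fold enrichment, began at position 105682508 and so reached only the last few bases. Capitals mark the 131 bases inside the 289 bp K4 peak of OPCs, which had 14.4-fold enrichment, at the 97.9th percentile of its list.
Pax6 promoter: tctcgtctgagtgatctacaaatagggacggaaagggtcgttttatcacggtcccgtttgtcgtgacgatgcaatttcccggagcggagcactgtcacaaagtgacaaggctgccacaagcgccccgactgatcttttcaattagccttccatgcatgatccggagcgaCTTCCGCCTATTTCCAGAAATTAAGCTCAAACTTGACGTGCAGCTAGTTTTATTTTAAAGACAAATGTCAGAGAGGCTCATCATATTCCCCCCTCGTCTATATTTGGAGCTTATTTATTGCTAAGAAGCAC
This stretch held 16 CpG dinucleotides. A K27 peak of 1105 bp with 13.3-fold enrichment began inside it in OPCs, at the 99.4th percentile of folds, and a K27 peak of 802 bp (4.54-fold) lay across it in NFOs. The K4 peak there in NFOs, 231 bp wide, was among the peaks at runs of A or T.

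**Figure D3:**
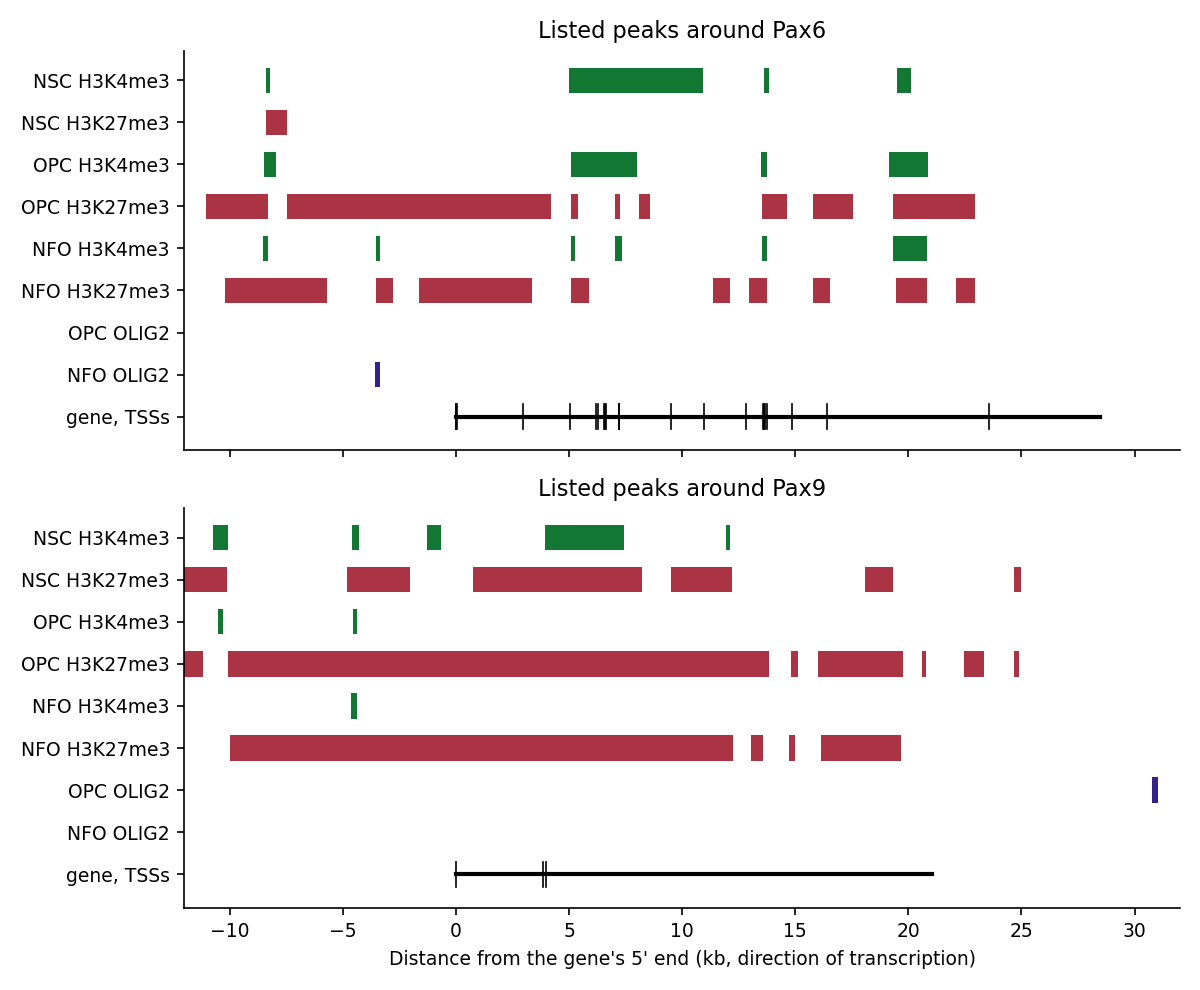
Listed peaks around Pax6 (top) and Pax9 (bottom) by distance in kb from the 5′ end of the gene, in the direction of transcription, with 1 row per library and the gene with its TSSs as ticks below. At Pax6, H3K4me3 stands without H3K27me3 in the gene in NSCs and beside it in OPCs and NFOs, and at Pax9 the 3469 bp H3K4me3 peak at the later starts is listed in NSCs only while H3K27me3 lies in the first part of the gene at all stages.

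Pax4, the other gene of the Pax4/6 pair and a factor of pancreatic beta cells, had hardly any mark. It is the shortest member, 7020 bp at chr6:28442334-28449353 on the minus strand. No K4 peak was listed at any stage. K27 was limited to a 274 bp peak in NSCs (3.24-fold, below the 3.5-fold minimum of the study's filter) and a 177 bp peak in OPCs (4.66-fold), and neither was left without the peaks at runs of A or T.

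Pax1 and Pax9, which pattern the sclerotome and the pharyngeal pouches, both had wide K27 in the first part of the gene at each stage. At Pax1 (chr2:147361925-147393295, plus strand) the widest K27 peaks were 24848 bp (NSCs), 9814 bp (OPCs) and 8813 bp (NFOs) wide, by stage, all at or above the 98.8th percentile of their lists. K4 at Pax1 was confined to short peaks that covered 1811, 411 and 747 bp, and no base of K4 was shared between NSCs and OPCs.

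At Pax9 (chr12:56691767-56712822, plus strand) the widest K27 peak was 7442 bp wide in NSCs but 23957 and 22231 bp wide at the later stages. The NSC peak began 777 bp inside the gene, so that it covered later starts but not the 5′ end, and its 3.29-fold enrichment is below the 3.5-fold minimum of the study's filter. The peaks of OPCs and NFOs ran over the 5′ end. Unlike at Pax1, it was narrowest in NSCs, and all of the 11382 bp covered in NSCs was covered again at both later stages. K4 in NSCs included a 3469 bp peak (5.9-fold) that began at the later starts and lay inside K27. In OPCs and NFOs no K4 was listed in Pax9 or within 2 kb of its TSSs. The bivalent call there came from K4 peaks of 189 and 249 bp at the upstream part of the K27 peak, more than 2 kb from any TSS.

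Pax2, Pax5 and Pax8 form the subfamily of the midbrain-hindbrain boundary, kidney, thyroid and B cells. Pax2 (chr19:44756045-44837871, plus strand), a gene of the kidney and the optic stalk, had widest K27 peaks of 24003, 12319 and 7324 bp by stage, and the length covered was 19763, 16799 and 10033 bp. K4 at Pax2 covered 2909, 2245 and 2244 bp. Both marks were also listed together near the 3′ end, where NSC K27 spanned 7090 bp (6.49-fold).

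Pax5 (chr4:44524757-44710487, minus strand), which holds B cells to their lineage, is the longest member. Its K27 coverage hardly differed between libraries, at 21522, 21479 and 21265 bp, and lay mostly at the 5′ end, where the widest peaks were 25641, 12013 and 7960 bp. K4 covered 5358, 1038 and 1015 bp, at the 96.7th, 56.3th and 85.5th percentile of protein-coding genes. A K4 peak upstream of the 5′ end recurred at 969 bp in NSCs (4.76-fold), 488 bp in OPCs (6.62-fold) and 771 bp in NFOs (7.34-fold), 1037, 1238 and 1217 bp from the start and inside K27 each time. The 488 bp peak of OPCs was among the short peaks at runs of A or T.

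Pax8 (chr2:24420560-24475599, minus strand), a gene of the thyroid follicular cell and kidney, differed from its relatives in NSCs. Only 1 K27 peak of 548 bp (4.9-fold) and no K4 were listed there. In OPCs and NFOs a K27 peak of 4653 bp (6.1-fold) and 4712 bp (4.8-fold) covered the first part of the gene, and the NSC peak lay fully within both. K4 was limited to a peak of 246 bp (OPCs) and one of 228 bp (NFOs), which shared no base.

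Pax3 and Pax7 act in the dorsal neural tube, the neural crest and muscle progenitors, and Pax7 is the classical gene of muscle satellite cells. Pax3 (chr1:78101267-78197134, minus strand) had the longest K27 coverage of the family at each stage, at 36835, 48241 and 42748 bp in the same order. Its widest peak reached 31722 bp in NSCs and 24447 bp in OPCs, over the 5′ end, and 10043 bp in NFOs, inside the gene. By contrast, K4 covered 6955 bp in NSCs but just 218 bp and 2031 bp at the later stages. A 3130 bp K4 peak (3.95-fold) at the Pax3 start in NSCs had no counterpart within 2 kb of a TSS in the other libraries.

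At Pax7 (chr4:139737062-139833528, minus strand) K27 covered 12924, 17373 and 20801 bp, with widest peaks of 12094, 8329 and 7907 bp in the first part of the gene. K4 was listed as 1 peak of 162 bp in NSCs (3.1-fold), none in OPCs and 1 of 198 bp in NFOs (3.18-fold). Both folds are below the 3.5-fold minimum of the study's filter, so that Pax7 had K27 without K4 by that filter.

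Across the family, the same bases carried K27 from library to library more often than in the lists as a whole. Of 128537 bp with K27 at Pax genes in NSCs, 85% had it in OPCs and 74.6% in NFOs, and of 160643 bp in OPCs 77.4% had it in NFOs. For all listed K27 the shares were 25.7%, 17.7% and 41.1%. For K4 the order differed between the pairs of libraries. From NSCs to OPCs, 20.1% of 28335 bp at Pax genes were listed again beside 50.3% of the list, and from NSCs to NFOs 19.7% beside 19.8%. From OPCs to NFOs the share was 45.1% of 9097 bp at Pax genes beside 32.3% of the list. The shares of the lists were not matched to the width of the peaks at Pax genes, and peaks at runs of A or T were included.

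OLIG2, a basic helix-loop-helix factor that specifies the oligodendrocyte lineage and binds E-boxes (CANNTG), had 8 listed peaks at Pax genes over both stages. In OPCs 2 members had one (Pax3 and Pax7), where 12.8% of all genes did, and in NFOs 4 (Pax2 with 3 peaks, Pax3, Pax6 and Pax8), where 22.5% did. Among protein-coding genes the shares were 16.5% and 28.2%, and the Pax genes are longer than most of these, so that nothing is read from the counts of 2 and 4 of 9. Pax3 alone had a peak at both stages, and these did not overlap, so that no OLIG2 position at a Pax gene was shared.

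The peaks in NFOs had 12-fold enrichment at Pax6, 11-fold at Pax3, 9.65-fold at Pax8, and 8.24-, 7.27- and 6.85-fold at Pax2. In OPCs they had 7.39-fold at Pax7 and 3.66-fold at Pax3, the latter below the 5-fold minimum of the study's filter. All lay below the 95th percentile of fold in their lists, which was 19.1 in OPCs and 16.9 in NFOs. The Pax6 and Pax8 peaks were upstream of the gene, 3351 and 1929 bp from its 5′ end, and the Pax3, Pax7 and Pax2 peaks were in the gene.

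**Figure D4:**
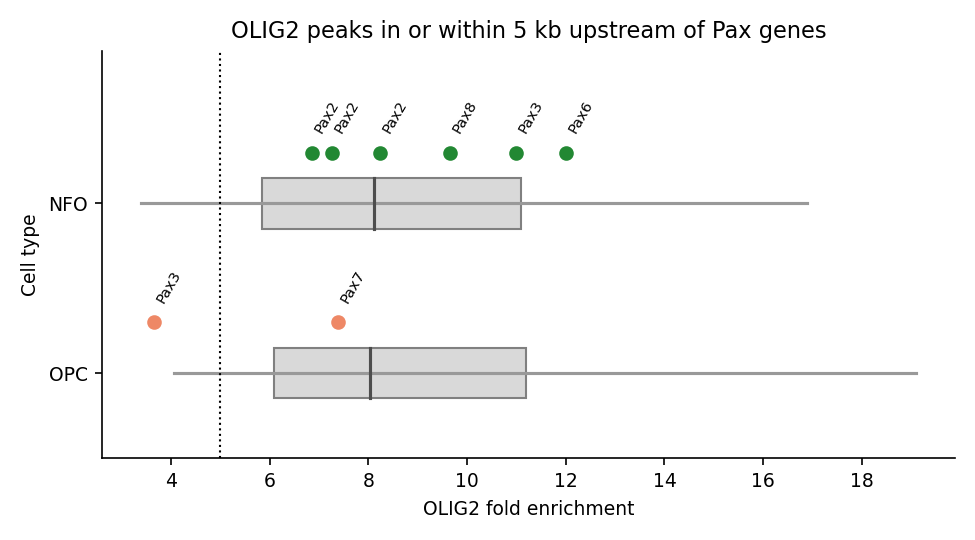
Fold enrichment over the control of the OLIG2 peaks in Pax genes or up to 5 kb upstream (coloured points, 1 per peak) in OPCs and NFOs, with the list of each stage below as a box from the 25th to the 75th percentile, its median and a line from the 5th to the 95th percentile. The dotted line is the 5-fold minimum of the study's filter, which the OPC peak at Pax3 (3.66) does not reach, and Pax6 (12) has the largest fold of the members.

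The sequences of 4 of these peaks are shown because they are the 3 strongest at Pax genes in NFOs and the stronger of the pair in OPCs. They are read on the plus strand of GRCm38.p6, and capitals mark E-boxes (CANNTG, which reads the same on both strands) and runs of 10 or more A or T.
Pax6, NFO, chr2:105665314-105665549: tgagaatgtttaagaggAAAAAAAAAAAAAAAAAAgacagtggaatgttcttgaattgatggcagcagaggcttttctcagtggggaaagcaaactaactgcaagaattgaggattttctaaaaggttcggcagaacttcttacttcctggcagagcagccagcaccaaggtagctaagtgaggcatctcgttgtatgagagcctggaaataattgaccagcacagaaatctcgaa
Pax3, NFO, chr1:78167262-78167497: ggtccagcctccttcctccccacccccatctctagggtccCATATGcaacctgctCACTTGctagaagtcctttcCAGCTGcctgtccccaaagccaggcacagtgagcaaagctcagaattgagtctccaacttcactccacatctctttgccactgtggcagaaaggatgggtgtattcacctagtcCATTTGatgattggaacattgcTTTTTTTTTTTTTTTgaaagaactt
Pax8, NFO, chr2:24477528-24477763: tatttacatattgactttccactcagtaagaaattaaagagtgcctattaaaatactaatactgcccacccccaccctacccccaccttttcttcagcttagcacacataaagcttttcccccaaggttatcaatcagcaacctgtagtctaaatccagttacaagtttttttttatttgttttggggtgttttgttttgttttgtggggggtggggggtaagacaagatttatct
Pax7, OPC, chr4:139771660-139771889: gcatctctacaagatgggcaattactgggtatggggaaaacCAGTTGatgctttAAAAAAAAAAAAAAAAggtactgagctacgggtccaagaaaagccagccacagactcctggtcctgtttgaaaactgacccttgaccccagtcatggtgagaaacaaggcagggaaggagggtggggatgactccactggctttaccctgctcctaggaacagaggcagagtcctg
The Pax3 peak held 4 E-boxes, among them CAGCTG, which 10.1% of NFO peaks of this length held. The Pax7 peak held 1 E-box, and the Pax6 and Pax8 peaks held none, although 69.3% of NFO peaks and 71.6% of all genome windows of that length held at least 1. A run of 18 A was in the Pax6 peak, 16 A in the Pax7 peak and 15 T in the Pax3 peak, and the longest run in the Pax8 peak was 9. Of all 8 OLIG2 peaks at Pax genes 7 held a run of 10 or more, and without such peaks 0 members in OPCs and 1 in NFOs (Pax8) had OLIG2, with 4.14% and 8.23% of all genes.

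The OLIG2 peak at Pax6 in NFOs overlapped a K4 and a K27 peak of that stage, as did the Pax3 peak in NFOs and 2 of the 3 at Pax2. The longest runs of A or T in these peaks were 18 bases (Pax6), 15 (Pax3), and 13 and 14 (Pax2). The other Pax2 peak, with a run of 16, overlapped neither mark. At Pax6 the K4 peak, 189 bp wide, and the K27 peak both began at -3.551 kb from the 5′ end. The share of all listed OLIG2 peaks that overlap both marks was not counted, so that nothing is read from these overlaps. The weaker Pax3 peak in OPCs lay on a K4 peak of 218 bp and inside K27. The Pax7 and Pax8 peaks overlapped neither mark. Around the members without a peak by the rule, the nearest OLIG2 peak to Pax1 was 454720 bp away in OPCs and 270781 bp in NFOs, and that to Pax5 208258 and 269597 bp. Pax9 had a 13.2-fold OPC peak 9738 bp beyond the gene's 3′ end, and Pax4 a 4.94-fold NFO peak at 17471 bp. The Pax4 peak and the nearest NFO peak to Pax5 (3.95-fold) are below the 5-fold minimum of the study's filter.

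The density of CpG dinucleotides around the 5′ end, which the choice by name did not use, was lowest at Pax4 and Pax8, the 2 members that had neither K4 nor wide K27 in NSCs. In 1000 bp, the ratio of observed to expected CpG was 0.0517 at Pax4 and 0.222 at Pax8, the 2.52nd and 25.4th percentile of protein-coding genes. The other 7 members lay between 0.57 (Pax6) and 0.701 (Pax2), all above the median of 0.553 for protein-coding genes. The match with the marks was limited to NSCs. In OPCs and NFOs, Pax8 had a K4 peak and K27 peaks of 4653 and 4712 bp, at width percentiles of 98.1 and 96.1 in their lists. This is a description over 9 genes, and a link of CpG density to the marks was not tested.

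Several lncRNAs run antisense to Pax genes, and peaks in the shared stretch cannot be given to one of the pair. AI646519 lay wholly inside the widest K27 peak of Pax1 at each stage. The same held for Gm15524 at Pax9 in OPCs and NFOs and for 5730488B01Rik at Pax5 in NSCs and OPCs. Pax6os1 overlaps the 5′ end of Pax6 and the wide K27 peaks there in OPCs and NFOs, and Gm13415 overlaps the first part of Pax8 with its K27 peaks. The lncRNA AC138457.1 upstream of Pax2 met the widest K27 peak of that gene in NSCs and OPCs. Gm20395 and 1700039E22Rik (Pax2), Gm12462 and 4930517J16Rik (Pax5) and the 3′ end of the protein-coding Slc25a21 (Pax9) overlap members as well.

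Pax proteins act in a network with Eya coactivators, which have phosphatase activity, and with Dach corepressors in eye, ear, muscle and kidney development. Of the 6 Eya and Dach genes, K27 near a TSS was listed at 3 at each stage, and K4 near a TSS at 6 in NSCs and at 5 in OPCs and in NFOs. The shares of all genes by stage were 12.9%, 14% and 8.04% for K27 and 49%, 45.3% and 32.7% for K4. Bivalent domains near a TSS were at Dach1 and Eya4 in NSCs, at Eya4 in OPCs and at Eya2 in NFOs, so that none of the 6 genes had one at all 3 stages. Such domains were at 7.54%, 4.79% and 2.86% of all genes by stage, and at 1.56% at all 3 stages. The only OLIG2 peak at these genes in OPCs was at Eya1 (11.8-fold). In NFOs they were listed at Eya3 (18-fold and 5.07-fold), Eya4 (8.55- and 6.86-fold), Dach1 (7.55-fold), Eya2 (7.05-fold) and Dach2 (6.83- and 5.41-fold). The counts of 1 of 6 and 5 of 6 genes stand beside the 12.8% and 22.5% of all genes given above, and 16.5% and 28.2% of protein-coding genes. These shares were not matched to the length of the Eya and Dach genes, so that nothing is read from the counts. Without the peaks at runs of A or T, OLIG2 was left at Eya1 in OPCs and at 3 of 6 genes in NFOs (Dach1, Dach2 and Eya2). The shares of all genes were then 4.14% and 8.23%.

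In the RIP-Seq lists, which hold sites called on RNA bound by an OLIG2 antibody (101310 sites) or by IgG (83195 sites), none lay on any of the 74 annotated transcripts of the Pax genes or within the genes by position. All sites together fell on only 1961 (OLIG2) and 1971 (IgG) transcripts, so that nothing is read from their absence at Pax genes. The share of all annotated transcripts with a site was not counted. The labels place these 2 libraries in NFOs and the methods in NSCs. A transcript with little RNA gives no site, so the lists do not say whether OLIG2 bound Pax RNA.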

How the data were processed

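ChIP-Seq peak lists of NSCs, OPCs and NFOs and 2 RIP-Seq lists were analysed, with 1 library each, grouped by title (RIP-Seq by the antibody label). The authors used Bowtie2 on mm10, dropped reads that did not map uniquely and blacklisted regions, and ran SPP for OLIG2 and MACS2 in broad mode for the histone marks. Versions are not given in the sources used here. The deposited lists give each peak's fold enrichment over the control, a ratio, and the −log10 of its FDR, both from the authors' peak callers. The histone lists also hold the −log10 p of the authors' MACS2 runs. The authors called RIP-Seq sites with ASPeak, and the deposited columns are the tag count, the RPKM of the transcript and the p-value of each site, of which only positions were used. All listed peaks were kept, also those that fail the study's filter (FDR below 0.05, fold above 3.5 for histones or 5 for OLIG2). The 3 input libraries and NSC OLIG2 peaks were not analysed here.

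TSSs and genes came from GENCODE M21 and sequences from GRCm38.p6, whose 21 chromosomes held every listed peak. Promoters came from RefSeq, with 10 promoters for 7 of 9 members and none for Pax3 and Pax4. Python 3.11.15, pandas 2.3.3, NumPy 2.4.6, pysam 0.24.0 and Matplotlib 3.10.9 were used, and the overlap counting was tested on simulated data. With 1 library per group, no test was run. All 9 Pax genes were named. Of the 6 Eya and Dach genes, those with OLIG2 or a bivalent domain were named, and of other genes those inside the widest K27 peak or overlapping a member. Other genes of that network and of the marker lists are not reported here, and both lists were shortened after their values had been seen. The members, lists and rules were chosen with earlier results of these data known, and the examination of A and T runs was added after their sequences had been seen. Alternatives were the study's filter, stricter folds, 1 TSS per gene, other distances, wider overlaps, a minimum width for K27 and leaving out peaks at such runs.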

Additional observations from a re-analysis of the deposited data

How the results depend on the processing

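Of 82 alternative values for 14 counts of members, 65 stayed within 1.5 times the reported count and 17 did not. With a fold above 5, the K27 count in NSCs was 4 (from 8), the bivalent counts were 0, 4 and 3 in NSCs, OPCs and NFOs (from 6, 7 and 7), and the OLIG2 count in OPCs was 1 (Pax7, from 2). With a fold above 10, OLIG2 was at 0 members in OPCs and 2 in NFOs (Pax3 and Pax6, from 4). With only the first 2 kb of the gene and 5 kb upstream, OLIG2 was at 0 and 2 members. K4 in NFOs was at 4 members (from 7) near a TSS alone. The study calls a gene bivalent when it has a bivalent domain and no peak of a single mark near a TSS, among peaks of its filter. Applied to all listed peaks, this rule left 4 members in NSCs, 2 in OPCs and 2 in NFOs (Pax3 and Pax9 at both later stages). The 2 following changes were chosen after seeing the data. With the K4 peak itself near a TSS, the NFO bivalent count was 4. Without peaks at runs of A or T, the bivalent counts were 4 in OPCs and 3 in NFOs, and OLIG2 was at 0 and 1 members. The counts of members with a K27 peak among the widest 5% stayed within 1.5 times under both alternatives tried, and were 6 in NFOs with the study's filter. The cause of these shifts beyond the loss of peaks was not tested. Depth is unknown, and with 1 library per group no replicate could be left out. No paired analysis was possible because each group had a single library.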
